A study of Mus musculus with 82 samples.

Results

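Lymphoid priming is the low expression, in multipotent blood progenitors, of genes that are used later in B and T cell development. The 8 genes described here were taken by symbol from the 55376 genes of the deposited count tables: Flt3, Il7r, Rag1, Rag2, Dntt, Satb1, Ikzf1 and Notch1. Flt3 and Il7r encode cytokine receptors that carry early lymphoid progenitors forward, Flt3 as the receptor tyrosine kinase for Flt3 ligand and Il7r as the alpha chain of the interleukin 7 receptor. Rag1 and Rag2 together form the recombinase that cuts antigen receptor genes, and Dntt encodes terminal transferase, which adds bases without a template at the joints. Satb1 is a chromatin organizer that is known to favor lymphoid output from hematopoietic stem cells (HSCs), Ikzf1 encodes the zinc finger factor Ikaros, and Notch1 is the receptor that commits progenitors to the T lineage.

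The genes were read in 30 mRNA-seq libraries of 11 groups, beside chromatin data for young and old HSCs. Freshly sorted HSCs came from C57BL/6J male mice, in 4 libraries of young mice (3 to 4 months) and 8 of old mice (24 to 26 months); the young samples were pools of mice and each old sample was 1 mouse. The gate was negative for lineage antigens (B220 of B cells and CD3 of T cells among them), CD34 and Flk2 and positive for Sca1, c-kit and CD150. Flk2 is the Flt3 protein, and the lineage cocktail held an antibody to the Il7r protein, so both receptors were selected against on the cell surface. Old HSCs were also transduced with a lentiviral shRNA, either a scrambled control or 1 of 2 shRNAs (shRNA1, shRNA2) directed at a shorter variant of Btaf1, a regulator of the TATA-binding protein, with 2 libraries each. These cells were either cultured for 3.5 days or transplanted into lethally irradiated CD45.1 female recipients, from which GFP-positive donor HSCs were sorted more than 4 months later and pooled from 2 to 4 recipients. The transplant gate used CD48 and CD150 with the same lineage antigens and did not use Flk2. Common myeloid progenitors (CMP), granulocyte-macrophage progenitors (GMP) and megakaryocyte-erythroid progenitors (MEP) of young mice had 2 libraries each. The labels do not tie the 2 libraries of a group to separate animals, so their p-values measure the spread between those samples, which may be technical.

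Library totals were 20475764 to 24654742 reads on genes for fresh HSCs, 37292602 to 42737054 in culture, 37601706 to 42142361 after transplantation and 33177394 to 36510850 for progenitors, and 15427933 to 26260337 reads on regions for ATAC-seq. The LT-HSC markers Slamf1 and Procr read 69.06 to 74.76 and 180.7 to 198.9 CPM (reads scaled to a library total of 1000000) in young HSCs, Mpo 44713 to 44880 CPM in GMP, and Klf1 790.7 to 810.8 CPM in MEP. The labels held against these markers, with MEP held by an erythroid one alone. The summed megakaryocyte markers were 63.98 and 79.8 CPM in MEP, against 660.1 and 670.6 CPM in CMP. Markers of other cell types moved with age. The B cell genes Cd79a and Ms4a1, summed, ranged from 21.13 to 55.26 CPM in the 4 young libraries and from 0.7706 to 2.116 CPM in the 8 old ones. Over 15 B cell markers the sum was 143.9 to 303.3 CPM in young HSCs and 41.91 to 55.99 CPM in 7 old libraries. The remaining old library, replicate 7, had 206.8 CPM, of which Ighm made up 161.6 CPM while its Cd79a was at 1.353 CPM. The summed markers of T and NK cells were 53.35 to 58.36 CPM in young and 94.35 to 119.4 CPM in old HSCs, although Cd3e was at or below 0.4603 CPM in every fresh library. The summed megakaryocyte markers were 560 to 603.3 CPM in young and 1444 to 1714 CPM in old HSCs, and the summed erythroid markers 172.4 to 234.5 CPM and 35.42 to 121.4 CPM. None of these 3 sums overlapped between the ages. Young replicate 4 also carried 244.6 CPM of Jchain, a plasma cell gene, against 0.4184 to 0.7826 CPM in the other young libraries.

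In young HSCs the 8 genes spanned more than 2 orders of magnitude. Per kilobase of exon, the mean level was 24.54 CPM per kb for Ikzf1, 5.006 for Notch1, 4.761 for Flt3 and 0.8111 for Satb1. The length counts all annotated exons of a gene together, 19027 bases for Satb1, 14232 for Notch1, 6176 for Flt3 and 5777 for Ikzf1. The size of these differences therefore depends in part on the annotation. Dntt, Rag1, Rag2 and Il7r were between 0.07256 and 0.2604 CPM per kb, which for Il7r rested on 3 to 10 reads in a library. The lymphoid cytokine receptor and the recombination genes were therefore read near the limit of these libraries, and the 4 other genes well above it.

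The stretches just upstream of the annotated starts differ among the genes in their CpG content, and 4 are shown to illustrate its range. They are the 120 bases before a RefSeq start in GRCm38.p6, written on the strand of the gene, with every CpG in capitals.
Flt3, chr5:147400490-147400609, minus strand: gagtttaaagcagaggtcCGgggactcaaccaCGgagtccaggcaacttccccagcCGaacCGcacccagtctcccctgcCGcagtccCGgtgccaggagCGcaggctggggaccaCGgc
Ikzf1, chr11:11685805-11685924, plus strand: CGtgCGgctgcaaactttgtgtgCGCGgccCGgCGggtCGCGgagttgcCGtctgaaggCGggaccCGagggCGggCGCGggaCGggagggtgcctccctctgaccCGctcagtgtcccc
Rag1, chr2:101649533-101649652, minus strand: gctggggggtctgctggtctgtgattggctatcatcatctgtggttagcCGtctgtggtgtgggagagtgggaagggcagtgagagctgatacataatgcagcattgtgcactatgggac
Il7r, chr15:9529877-9529996, minus strand: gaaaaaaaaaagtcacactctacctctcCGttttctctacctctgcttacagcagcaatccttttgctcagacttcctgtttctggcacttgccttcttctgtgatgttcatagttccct
Over 250 bases upstream, Ikzf1 held 44 CpGs at its first start and 1 at its second, and Flt3 held 13, whereas Rag1 and Rag2 held 3 each, Dntt 2 and Il7r 1. Notch1 held 16, and the 5 RefSeq starts of Satb1 held between 3 and 41. The median of all 32817 RefSeq starts was 6 CpGs, with quartiles of 2 and 16.

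Old HSCs were compared with young HSCs first, to ask how age moves these genes. Flt3 and Satb1 fell in old HSCs, Ikzf1 was slightly lower, and Notch1 differed by less than its spread. A gene was called when its fold change exceeded 1.5 and its adjusted p (edgeR quasi-likelihood test, Benjamini-Hochberg) was below 0.05. Of 21522 genes tested, 1618 were called, 7.52%, and 608 were called lower, 2.83%. Of the 8 members 7 were tested and 2 were called, both lower. The median log2 fold change of the 7 was -0.511, against -0.00729 over all genes. It is the value of Dntt, a gene with few reads, and the median was -0.27 without young replicate 3, -0.875 without young replicate 1 and -0.239 with the replicate number as a block.

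Flt3 (chr5:147330741-147400489, minus strand) read 29.16, 34.87, 25.73 and 27.86 CPM in the 4 young libraries. In the 8 old libraries it ranged from 11.84 to 19.12 CPM with a median of 15.48 CPM. The ages did not overlap: the lowest young library was above the highest old one. Flt3 fell 1.86-fold (log2 -0.90 ± 0.10 SE, adjusted p = 9.002e-07, edgeR), in cells that had been sorted as negative for its protein at both ages. Il7r (chr15:9505788-9530176, minus strand) read 0.1244 to 0.4884 CPM in young and 0.1217 to 0.5326 CPM in old HSCs, between 3 and 13 reads a library, and the ages overlapped fully (log2 -0.11 ± 0.50 SE, adjusted p = 0.9202, edgeR).

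Satb1 (chr17:51736187-51833290, minus strand) showed the steeper difference. It read 15.86, 15.14, 14.32 and 16.42 CPM in young HSCs and 3.813 to 5.765 CPM, with a median of 5.309 CPM, in old HSCs. The lowest young library was above the highest old one by a wide margin. Satb1 fell 2.97-fold (log2 -1.57 ± 0.11 SE, adjusted p = 1.233e-10, edgeR). Its counts could include reads of 6 annotated genes that overlap it, since no source used here gives the strand setting of the counting.

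Ikzf1 (chr11:11685003-11772926, plus strand) read 133.9 to 153.8 CPM in young and 112.8 to 121.6 CPM in old HSCs. The ages did not overlap, but the difference was 1.18-fold (log2 -0.24 ± 0.04 SE, adjusted p = 0.0001472, edgeR) and stayed under the fold threshold. Notch1 (chr2:26457903-26516663, minus strand) read 69.75, 74.23, 67.99 and 73 CPM in young HSCs and 62.46 to 74.36 CPM, with a median of 68.48 CPM, in old HSCs. Its ages overlapped (log2 -0.02 ± 0.05 SE, adjusted p = 0.8645, edgeR).

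The recombination genes rested on few reads. Rag1 (chr2:101638282-101649501, minus strand) read 1.046, 0.8302, 0.5985 and 1.036 CPM in young HSCs, 13 to 25 reads. In old HSCs 6 libraries lay between 0.175 and 0.2706 CPM, while replicates 1 and 4 read 0.7958 and 0.9831 CPM, inside the young range. The difference missed the threshold (log2 -1.09 ± 0.43 SE, adjusted p = 0.08059, edgeR). Without old replicate 1 it was -1.30 with an adjusted p of 0.03688, and without old replicate 4 it was -1.39 with an adjusted p of 0.0139. Rag1 passed the filter on low counts mainly through the young libraries, and each of these refits left out 1 of the 2 high old libraries. A lower value in old HSCs was thereby selected for, so these 2 calls are no support. Rag2 (chr2:101624718-101632529, plus strand) read 0.09207 to 0.456 CPM in young and 0.1326 to 0.8568 CPM in old HSCs and did not pass the filter on low counts. Dntt (chr19:41029275-41059525, plus strand) read 0.08369, 0.4395, 1.657 and 0.2073 CPM in young HSCs and 0.04056 to 0.6703 CPM in old HSCs, with the highest and one of the lowest values both among the young (log2 -0.51 ± 0.59 SE, adjusted p = 0.6425, edgeR). With each library left out in turn, its log2 fold change ranged from -0.88 to 0.78, so its direction was not stable.

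**Figure D1:**
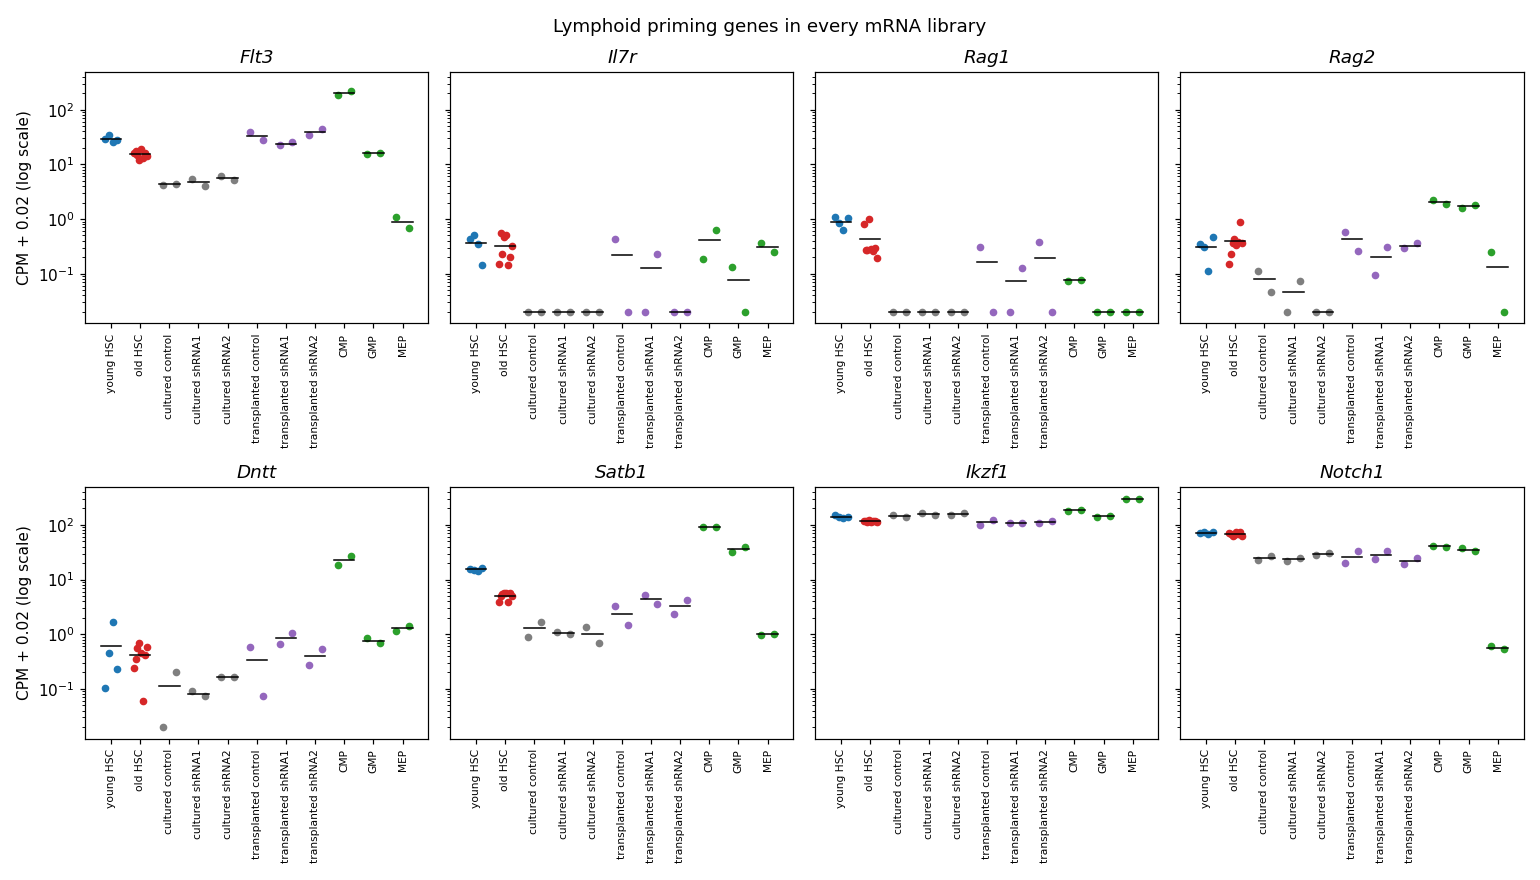
CPM (plus 0.02, log scale) of each member in every mRNA-seq library, with points for libraries and a black line for the group mean, for fresh HSCs (blue young, red old), cultured (grey), transplanted (purple) and progenitor (green) groups. Flt3, Satb1 and Dntt peak in CMP, Ikzf1 peaks in MEP, and Notch1 drops to about 0.5 CPM in MEP.

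The fall of Flt3 and Satb1 moved together with the B cell transcripts, so both were refitted with those transcripts in view. Among the 15 B cell markers 14 were tested and 10 fell, with a median log2 fold change of -3.33. With the summed 15 markers as a covariate, Flt3 was at -0.93 (adjusted p = 0.002642) and Satb1 at -1.44 (adjusted p = 3.425e-05), and both remained called among 1060 genes. With young replicate 4 and old replicate 7 left out they were at -0.92 (adjusted p = 2.248e-05) and -1.56 (adjusted p = 1.179e-08). In the summed CPM of Cd79a and Ms4a1 the ages do not overlap. With this sum as the covariate, 141 genes in all were called, Flt3 among them (-1.62 ± 0.37 SE, adjusted p = 0.04312) and Satb1 not (-1.15 ± 0.43 SE, adjusted p = 0.3674). The Flt3 call turned on the markers in the sum. With Cd79a alone as the covariate Flt3 was called (-1.73 ± 0.36 SE, adjusted p = 0.01849). Satb1 was then not called (adjusted p = 0.1446), with a difference of -1.56 ± 0.44 SE against -1.57 ± 0.11 SE without a covariate. With Ms4a1 alone both were called, Flt3 at -1.12 (adjusted p = 0.02562) and Satb1 at -1.13 (adjusted p = 0.02444). With 1 further marker of the B cell list added to the sum, 64 genes were called and neither was, Flt3 at -1.52 ± 0.46 SE (adjusted p = 0.3024) and Satb1 at -1.19 ± 0.51 SE (adjusted p = 0.5954). Age and these transcripts cannot be told apart across the 12 libraries, and the part of the T and NK, megakaryocyte and erythroid markers was not tested. Among the young libraries, Flt3 was 29.16 and 34.87 CPM in the 2 with the lower B cell sums and 25.73 and 27.86 CPM in the 2 with the higher sums, and Satb1 lay between 14.32 and 16.42 CPM in all of them. The gate removes cells with B220 on the surface, and no value here gives the source of the B cell transcripts. In bulk libraries, fewer cells of one type and less RNA in each cell cannot be told apart.

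**Figure D2:**
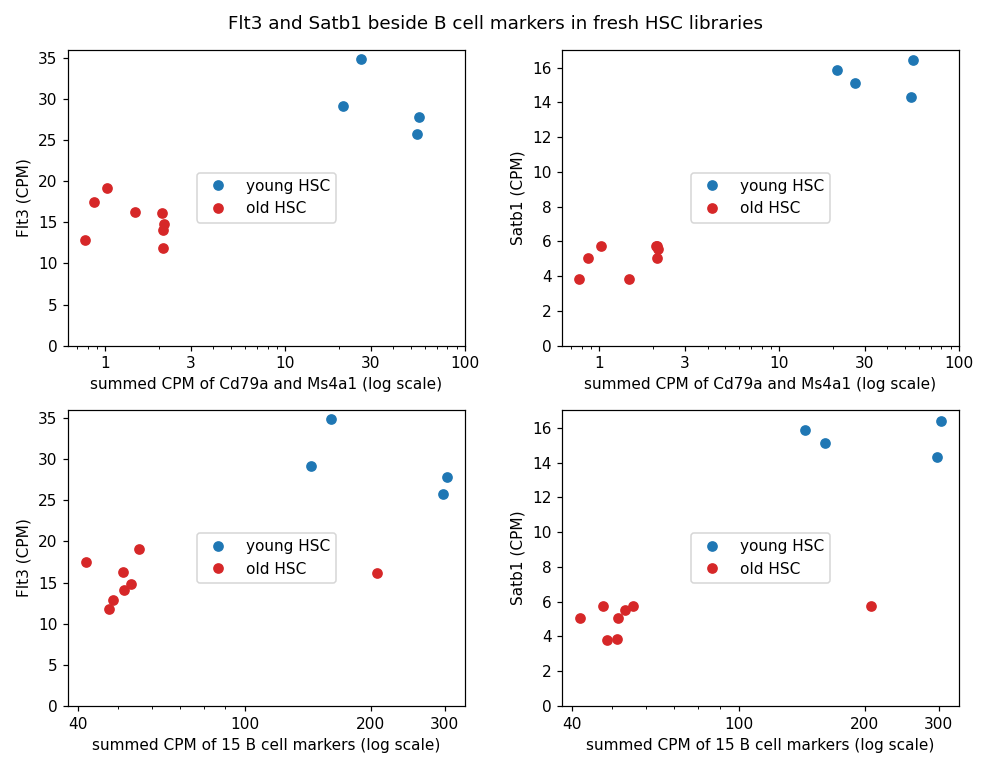
Flt3 (left) and Satb1 (right), in CPM, against the summed CPM of Cd79a and Ms4a1 (top) or of 15 B cell markers (bottom), both on a log scale, with 1 point for each fresh HSC library, blue young and red old. All old libraries lie at or below 2.116 CPM in the sum of Cd79a and Ms4a1, and old replicate 7, at 206.8 CPM in the 15-marker sum, has Flt3 and Satb1 among the other old libraries.

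In 3 partner lists few genes were called with age, where 7.52% of all genes were called. Of 12 genes of V(D)J cutting and end joining, 1 rose and none fell: Polm, a DNA polymerase of end joining (log2 0.65, adjusted p = 0.00102, edgeR). Of 14 genes of interleukin 7 and Flt3 signaling, Pim1, a survival kinase, rose (0.70, adjusted p = 0.0175) and Cish, a feedback inhibitor of STAT5, fell (-0.82, adjusted p = 0.0268). Of 25 Notch pathway genes tested, the ligand gene Jag1 rose (0.75, adjusted p = 2.87e-05) and Lfng, which encodes a glycosyltransferase acting on Notch receptors, fell (-0.59, adjusted p = 0.00281). The medians of these 3 lists were -0.09, 0.08 and 0.07, near the -0.00729 of all genes.

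The remaining lists held B cell genes among the genes that fell. Of 32 lymphoid transcription factors, 2 rose and 5 fell (median -0.05), and the largest changes were Spib (-4.93), Ikzf3 (-2.72), Ebf1 (-2.22) and Irf4 (-2.05), all of them genes that mature B lineage cells use. Of 14 surface and early genes of lymphoid-primed progenitors, 2 rose and 7 fell (median -0.54), led by Btla (-3.74), Cd52 (-2.74), Cd48 (-2.54) and, in the opposite direction, Cd53 (1.88). Each of these 8 genes had an adjusted p below 0.05 in edgeR, and the B cell marker sums given above moved with them; their part in these values was not tested.

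The chromatin of the members was compared in the same gate. H3K27ac, a mark of active promoters and enhancers, had 16 peaks assigned to members among 39557, namely 4 each at Flt3 and Ikzf1, 3 each at Notch1 and Satb1 and 2 at Dntt. No peak was assigned to Il7r, Rag1 or Rag2. A peak was called when the ratio of the mean signals exceeded 1.5 and every old and young pair of libraries differed by at least 1.2-fold in that direction, a rule without a test. It called 4500 peaks in all, 11.4%, and 2 of the 16, and the median old to young ratio was 1.077 for the 16 and 1.04 for all peaks.

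At the start of Flt3 (chr5:147399794-147401052) the signal was 3.519 and 2.928 in young and 1.718 and 2.34 in old HSCs, a ratio of 0.6295, and both old libraries were below both young ones. A second Flt3 peak, about 7.5 kb into the gene, had a ratio of 0.7119 and was not called. Inside Notch1 (chr2:26493031-26493627) the signal was 3.414 and 2.873 in young and 4.584 and 6.151 in old HSCs, a ratio of 1.708, with no overlap between the ages. Each call rested on single libraries. Without old replicate 2 the Notch1 ratio was 1.458 and the peak was not called. The Flt3 start was not called without young replicate 1 (0.693) or old replicate 1 (0.7259). The peaks at 2 starts of Satb1 had ratios of 0.6577 and 0.6692 and were not called. At the first the signal was 3.051 and 1.912 in young and 1.828 and 1.436 in old HSCs, so that 1 young and 1 old library lay within 1.2-fold of each other. At the other it was 2.633 and 1.925 against 1.506 and 1.544, just under the 1.5-fold threshold. With the 4 libraries scaled to the same median, 4 member peaks were called in place of 2, 3 of them lower. The first start of Ikzf1 had a ratio of 0.9396. In limma across all peaks the adjusted p was 0.135 for the Flt3 start and 0.083 for the Notch1 peak, so neither passed 0.05 with 2 libraries an age; with the replicate number as a block the Notch1 peak did (adjusted p = 0.0229).

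**Figure D3:**
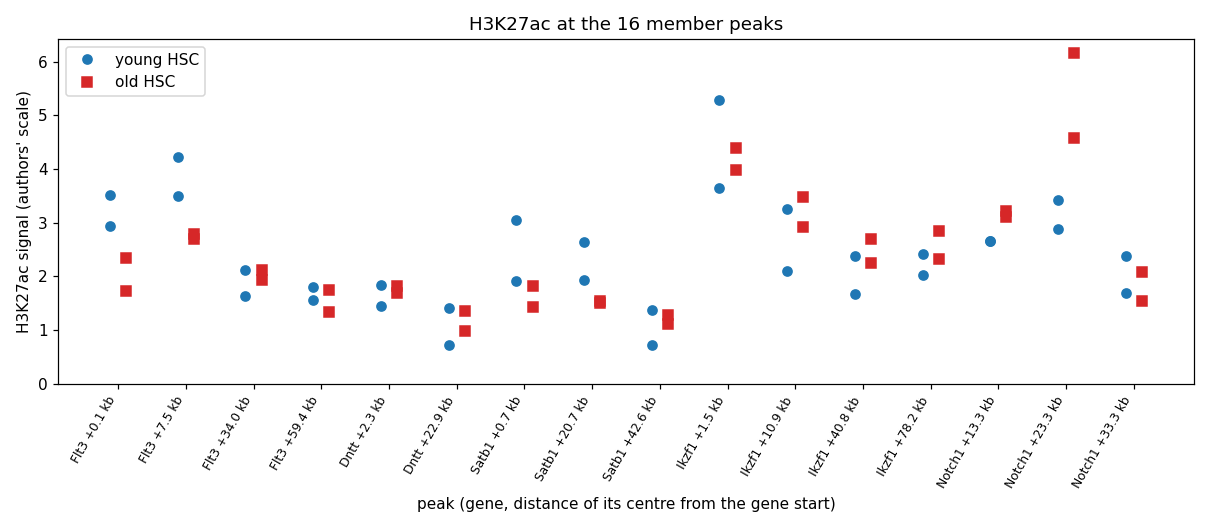
H3K27ac signal, on the authors' depth-normalized scale, at the 16 member peaks, labelled by gene and by the distance of the peak center from the gene start, with 2 young (blue circles) and 2 old (red squares) libraries. Both old libraries are below both young ones at the Flt3 start, and above both at the Notch1 peak 23.3 kb into the gene.

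H3K4me3, a mark of promoters, and H3K27me3, a mark of Polycomb repression, were used here in young HSCs, with 2 libraries each. The H3K4me3 signal at starts was 23.39 and 23.81 for Notch1 (at its RefSeq start, 13438 bases into the longer GENCODE gene), 21.48 and 22.65 for Ikzf1, 17.19 and 15.32 for 1 start of Satb1 and 16.03 and 16.32 for another. The start of Flt3 had less, 9.142 and 9.441. Dntt had only a weak peak inside the gene (1.557 and 1.471), and Il7r, Rag1 and Rag2 had none assigned.

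The start of Flt3 also lay in an H3K27me3 peak of 1.133 and 1.066, above 98.4% and 97.8% of the 55820 peaks in the same 2 libraries. Rag1 lay in a long H3K27me3 domain (chr2:101629000-101677999) with a signal of 0.6497 and 0.7188, above 92.3% and 93.7% of peaks. The domain covered 100% of Rag1 and 45.2% of its neighbor Rag2, which is read from the opposite strand. Dntt had 1 peak of 0.3935 and 0.4497 and Satb1 had 5 weaker ones, and none was assigned to Notch1, Ikzf1 or Il7r. The start of Flt3 thus carried all 3 marks in young HSCs. Peaks of all 3 marks were also assigned at 2 starts of Satb1, but their H3K27me3 was low among all peaks. At the first it was 0.2829 and 0.2956, above 20.6% and 25.1% of peaks. At the other it was 0.1134 and 0.3535, above 0.7% and 40.6%, so the 2 libraries differed there.

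Accessible regions were counted by ATAC-seq in 4 young and 4 old libraries, over each gene and 20 kb to either side. Of 84 such regions, 76 passed the filter. The threshold was a 1.5-fold difference with an edgeR adjusted p under 0.01. Over all regions 11591 of 89245 were called, 13.0%, of which 8999 were more open in old HSCs and 2592 less open. Of the 76, 7 were called, 2 more open and 5 less open in old HSCs, with a median log2 fold change of -0.06 against -0.01 over all regions. The less open regions lay in Flt3, Satb1 and Notch1 and the more open ones at Il7r. Of the 7, 2 (1 each in Flt3 and Il7r) passed the filter through 1 age alone, so the count is a description.

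The middle 200 bases of 4 of the called regions are shown on the plus strand of GRCm38.p6. Among them, the Flt3 intron region passed the filter through the young libraries alone and the Il7r intron region through the old libraries alone. Both had to differ, so their calls do not show that accessibility moved there. Capitals mark matches, on either strand, to 5 sets of letters. The ETS set was GGAAGT and the Runx set was TGTGGT. The Ikaros set was TGGGAA and can overlap the ETS set. The E-box searched was CAGCTG and the GATA set was AGATAA.
Flt3 intron, chr5:147339698-147339897: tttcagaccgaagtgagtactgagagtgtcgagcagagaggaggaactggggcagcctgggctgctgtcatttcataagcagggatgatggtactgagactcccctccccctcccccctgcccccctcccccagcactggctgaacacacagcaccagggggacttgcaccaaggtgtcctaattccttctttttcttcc
Satb1 intron, chr17:51788137-51788336: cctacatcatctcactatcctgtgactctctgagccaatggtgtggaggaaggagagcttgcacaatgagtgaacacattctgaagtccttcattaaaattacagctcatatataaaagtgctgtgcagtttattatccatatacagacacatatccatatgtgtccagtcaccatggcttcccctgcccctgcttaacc
Notch1 intron, chr2:26513428-26513627: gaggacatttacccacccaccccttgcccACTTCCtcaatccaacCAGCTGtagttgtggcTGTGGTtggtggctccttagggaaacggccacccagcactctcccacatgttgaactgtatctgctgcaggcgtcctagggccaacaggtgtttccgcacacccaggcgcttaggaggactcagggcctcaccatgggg
Il7r intron, chr15:9523912-9524111: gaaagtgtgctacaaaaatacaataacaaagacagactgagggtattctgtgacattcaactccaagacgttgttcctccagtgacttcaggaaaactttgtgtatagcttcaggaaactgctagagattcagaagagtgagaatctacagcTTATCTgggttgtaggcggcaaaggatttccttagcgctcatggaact
Across the middle 200 bases of 89242 regions, the ETS letters were found in 24.3%, Runx in 20.3%, Ikaros in 17.0%, the E-box in 13.0% and GATA in 9.79%, so each match here is a common one. The Notch1 sequence held ETS, E-box and Runx letters and the Il7r sequence GATA, and the Flt3 intron and Satb1 sequences held none of the 5.

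In Flt3, the intron region (chr5:147339605-147339990) read 2.611, 2.787, 2.035 and 2.285 CPM in young and 0.6988, 1.042, 1.272 and 0.86 CPM in old HSCs (log2 -1.31 ± 0.24 SE, adjusted p = 1.915e-05, edgeR). Every old library was below every young one. The region passed the filter through the young libraries alone, so it had to differ and its call is no support. The intron region of Satb1 (chr17:51787923-51788550) read 3.244 to 4.278 CPM in young and 1.659 to 2.028 CPM in old HSCs (-1.002 ± 0.19 SE, adjusted p = 3.645e-05), again without overlap.

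Notch1 lost accessibility at regions 3.1 kb and 33.2 kb from its GENCODE start, although its mRNA level did not pass the test. The first lies upstream of the RefSeq start, which is the start with the H3K4me3 peak. The first (chr2:26513230-26513825) read 6.804, 6.806, 9.216 and 7.73 CPM in young and 3.794, 3.164, 5.487 and 4.105 CPM in old HSCs (-0.90 ± 0.14 SE, adjusted p = 1.147e-06). The second (chr2:26483075-26483886) read 10.05 to 10.7 CPM in young and 6.411 to 7.488 CPM in old HSCs (-0.64 ± 0.11 SE, adjusted p = 6.183e-06). All 9 tested regions of Notch1 had a fold change below 0 on the log2 scale, 2 of them called. The called H3K27ac peak, 23.3 kb from the GENCODE start, moved the other way.

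Il7r had 3 tested regions, and the 2 away from its start were called more open in old HSCs. The intron region (chr15:9523743-9524279) read 0.9098, 0.713, 0.4224 and 1.028 CPM in young and 2.396, 3.241, 1.59 and 2.111 CPM in old HSCs (1.58 ± 0.27 SE, adjusted p = 5.134e-06). It passed the filter, more than 1.5 CPM in 4 libraries, through the old libraries alone, so it was not tested with an old library left out. A region with these values had to differ, so its call is no support. The region past the gene end (chr15:9491950-9492561) read 2.074 to 2.688 CPM in young and 3.394 to 4.591 CPM in old HSCs (0.69 ± 0.18 SE, adjusted p = 0.002129). This call was lost without old replicate 6 (0.59, adjusted p = 0.01867). The region at the start of Il7r was at -0.05. Il7r mRNA stayed at or below 0.5326 CPM at both ages.

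At the starts of the other genes the changes were smaller than 1.5-fold. The region at the first start of Satb1 read 54.26 to 58.34 CPM in young and 43.42 to 48.59 CPM in old HSCs (log2 -0.36, adjusted p = 7.88e-08, edgeR). At the start of Flt3 it read 26.9 to 28.53 CPM in young and 22.13 to 24.36 CPM in old HSCs (-0.26, adjusted p = 0.001144), and at the first start of Ikzf1 57.36 to 61.74 CPM against 47.77 to 57.21 CPM (-0.23, adjusted p = 0.0002304). None of these 3 was called under the fold threshold. The region at the start of Rag1 was at 0.47, higher in old HSCs (adjusted p = 0.08019, edgeR). For Notch1, the region at the GENCODE start was at -0.19 (adjusted p = 0.5785) and that at the RefSeq start at -0.27 (adjusted p = 0.01702). Of the 21 tested regions of Ikzf1, the 7 of Dntt, the 10 of Rag1 and the 9 of Rag2, none was called, and the windows of Rag1 and Rag2 share 9 regions.

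**Figure D4:**
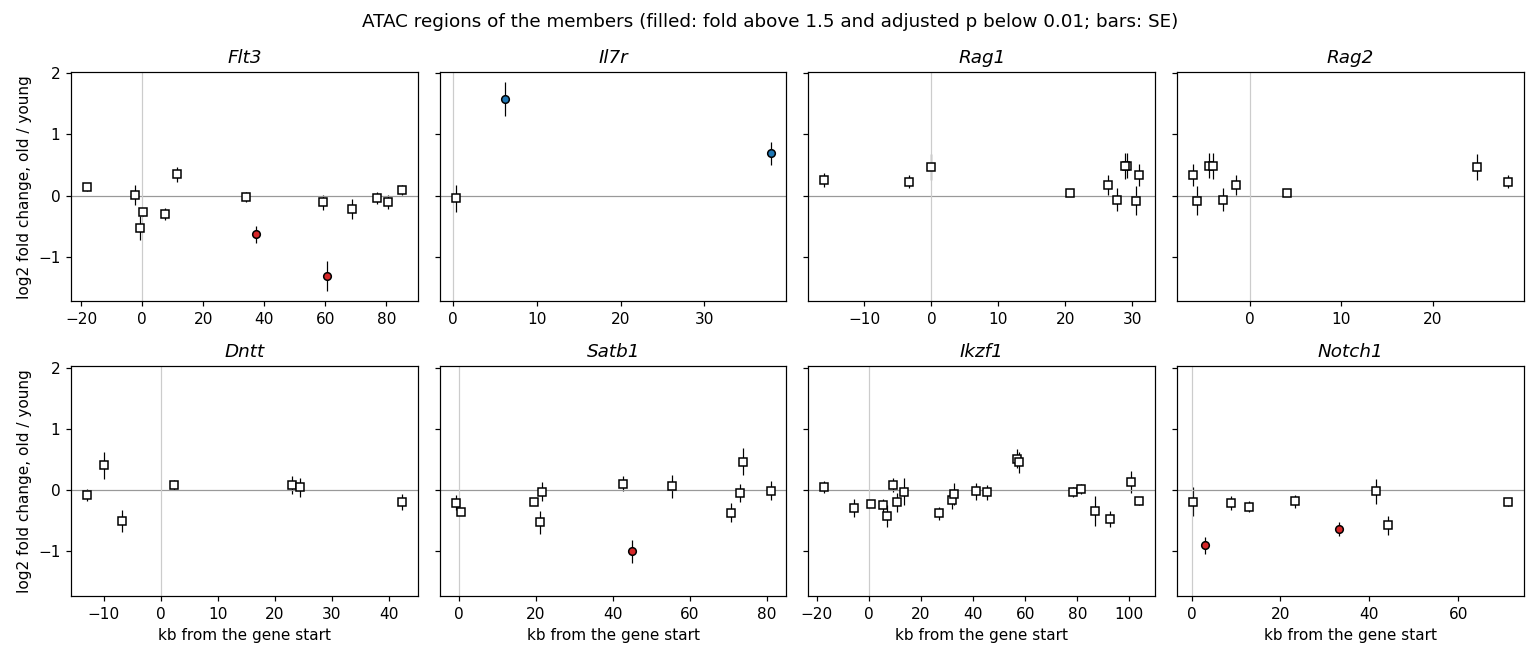
Log2 fold change (old over young) of each tested ATAC region against its distance in kb from the start of the gene, with SE bars, 4 libraries an age; filled points are called (red less open, blue more open in old). The called regions are 2 each in Flt3, Notch1 and Il7r and 1 in Satb1, and all Notch1 regions lie below 0.

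Knockdown of the shorter Btaf1 variant was then examined, first for the targeted gene. Btaf1, whose gene counts mix both variants, read 137 to 141.1 CPM in cultured control HSCs, 110 to 119.2 CPM with shRNA1 and 111.2 to 113.4 CPM with shRNA2 (log2 -0.31 ± 0.05 SE, adjusted p = 0.00151, edgeR). After transplantation it read 160.6 to 165.5, 131.2 to 139.2 and 117.8 to 119.2 CPM in the same order (-0.37 ± 0.08 SE, adjusted p = 0.791). All knockdown libraries were below both controls in each setting.

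No member was called after knockdown in culture, where 179 of 19763 genes were called, 0.906%. Only 4 members passed the filter, and Ikzf1 was the most abundant, with 151.4 and 139.9 CPM in the controls, 163.2 and 149.3 CPM with shRNA1 and 152.7 and 162.8 CPM with shRNA2 (log2 0.09 ± 0.05 SE, adjusted p = 0.4516, edgeR). Flt3 read 4.188 and 4.371 CPM in the controls, 5.441 and 3.924 CPM with shRNA1 and 6.045 and 5.201 CPM with shRNA2 (0.25 ± 0.18 SE, adjusted p = 0.5871). Satb1 was at 0.6837 to 1.636 CPM over the 6 libraries (-0.31 ± 0.34 SE, adjusted p = 0.7419) and Notch1 at 22.26 to 30.32 CPM (0.07 ± 0.13 SE, adjusted p = 0.8613). Il7r and Rag1 had no reads in any cultured library.

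Some partners did change in culture. Of 25 lymphoid transcription factors tested, Id3 (log2 1.55, adjusted p = 5.41e-09) and Id2 (0.80, adjusted p = 1.5e-05), inhibitors of E proteins, rose, and Gfi1 (-0.69, adjusted p = 0.0035) and Bach2 (-0.59, adjusted p = 0.00981) fell. Of 12 surface and early genes, 1 rose and 2 fell, the latter being Cd48 (-1.52, adjusted p = 0.000421) and Ltb (-0.95, adjusted p = 0.000427). In the V(D)J, interleukin 7 and Flt3, and Notch lists none of 12, 14 and 25 tested genes was called. Cell type markers moved with the knockdown. The summed T and NK markers were 57.54 and 59.69 CPM in the controls and 35.77 to 44.76 CPM in the 4 knockdown libraries, the erythroid sum 123.7 and 126.1 CPM against 83.69 to 108.4 CPM, and the plasma cell sum 13.27 and 13.34 CPM against 8.034 to 12.36 CPM. The LT-HSC sum was 2125 and 2162 CPM against 2277 to 2373 CPM. None of these overlapped, and their part in the list values was not tested.

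After transplantation edgeR called 0 of 20350 genes, 0%, with DESeq2 calling 24, and 455 genes passing the same fold at an unadjusted p below 0.05. None of 7 members tested was called by either tool. Flt3 read 39.3 and 28.03 CPM in the controls, 22.68 and 25.24 CPM with shRNA1 and 34.77 and 44.1 CPM with shRNA2, so the 2 shRNAs lay on either side of the controls' mean (log2 -0.09 ± 0.26 SE, adjusted p = 0.9836, edgeR). Satb1 read 3.275 and 1.436 CPM in the controls, 5.15 and 3.582 CPM with shRNA1 and 2.295 and 4.221 CPM with shRNA2 (0.68 ± 0.39 SE, adjusted p = 0.9282). Leaving out 1 library at a time moved this Satb1 value between 0.21 and 1.40. The difference between the knockdown effects in the 2 settings was tested as an interaction, in which 36 of 21443 genes were called, 0.168%, and no member, with Flt3 at -0.35 ± 0.37 SE (adjusted p = 0.8619) and Satb1 at 1.00 ± 0.55 SE (adjusted p = 0.6517).

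The control HSCs themselves differed between the settings. Flt3 was 7.17-fold higher after transplantation than in culture (log2 2.84 ± 0.31 SE, adjusted p = 1.303e-05, edgeR), with 39.3 and 28.03 CPM against 4.188 and 4.371 CPM. It was the only member called of 7 tested, where 5335 of 21443 genes were called, 24.9%. Ikzf1 was lower, 100.8 and 123.4 CPM against 151.4 and 139.9 CPM (-0.51 ± 0.09 SE, adjusted p = 0.0003195), under the fold threshold; without transplanted control replicate 2 it was at -0.67 (adjusted p = 5.341e-05) and called. Satb1 (0.78 ± 0.45 SE, adjusted p = 0.1903) and Notch1 (-0.05 ± 0.27 SE) were not called. Leaving out 1 library at a time moved Satb1 between 0.06 and 1.27. Rag1 had 12 reads and Il7r 17 reads in transplanted control replicate 1, and no reads in replicate 2 or in either cultured control. Time, environment, sort gate and sequencing differed together between culture and transplantation and cannot be told apart.

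Partner genes were called in both directions between the settings. Of 13 surface and early genes, 7 rose and 3 fell after transplantation, among them Cd48 (log2 -5.44), a marker that the transplant gate selected against, Cd52 (3.93) and Cd27 (1.42). Of 26 lymphoid transcription factors, 7 rose and 4 fell, led by Id3 (-5.60), Id2 (-1.96), Tox (1.49) and Gfi1 (1.42). Of 26 Notch pathway genes, 5 rose and 5 fell, led by the target gene Hes1 (2.00), Jag2 (-1.51), Notch2 (1.34) and Jag1 (-1.20). In the interleukin 7 and Flt3 list Il7 rose (1.65) and Cish fell (-0.73), and in the V(D)J list Hmgb2 fell (-1.24). The adjusted p of each was below 0.05 in edgeR, where 24.9% of all genes were called. Cell type markers moved with these lists. From culture to transplantation the summed LT-HSC markers went from 2125 and 2162 to 3779 and 3861 CPM, and those of granulocytes and monocytes from 386.3 and 394.9 to 656.2 and 838.5 CPM. The megakaryocyte sum went from 1721 and 1742 to 788.8 and 936.1 CPM and the erythroid sum from 123.7 and 126.1 to 38.37 and 61.06 CPM. The T and NK sum went from 57.54 and 59.69 to 87.23 and 93.42 CPM and the B cell sum from 19.28 and 19.66 to 31.62 and 35.17 CPM, and the part of these markers in the list values was not tested.

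The progenitors were compared next. Relative to CMP, MEP was lower in 5 members and higher in Ikzf1, and GMP was lower in 3. Of 18234 genes tested, 8514 were called between MEP and CMP, 46.7%, and 6 of 7 members. Between GMP and CMP 3054 genes were called, 16.7%, and 3 of 7 members, and between MEP and GMP 7975 genes, 43.7%, and 5 of 7 members. Rag2 is counted in both MEP comparisons, although it passed the filter through CMP and GMP alone.

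Flt3 read 188.5 and 215.5 CPM in CMP, 15.49 and 16.13 CPM in GMP and 1.07 and 0.6791 CPM in MEP. It fell 11-fold from CMP to GMP (log2 -3.46 ± 0.10 SE, adjusted p = 9.12e-11, edgeR) and was 212-fold lower in MEP than in CMP (-7.73 ± 0.14 SE, adjusted p = 4.532e-14). Satb1 had the same order, with 90.85 and 92.95 CPM in CMP, 32.17 and 39.54 CPM in GMP and 0.9575 and 0.9904 CPM in MEP. It was 2.2-fold lower in GMP (-1.14 ± 0.10 SE, adjusted p = 1.791e-06) and 86.8-fold lower in MEP (-6.44 ± 0.15 SE, adjusted p = 3.92e-13).

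Dntt was read mainly in CMP, at 18.57 and 26.88 CPM. It was 26.2-fold lower in GMP, at 0.8168 and 0.6631 CPM (adjusted p = 4.026e-08, edgeR), and 16.4-fold lower in MEP, at 1.126 and 1.415 CPM (adjusted p = 5.288e-09). Rag2 read 2.191 and 1.878 CPM in CMP and 1.577 and 1.778 CPM in GMP, which did not differ beyond their spread (log2 -0.06 ± 0.47 SE). It was 16.2-fold lower in MEP (log2 -4.02, adjusted p = 0.0001454, edgeR), with 8 reads in replicate 1 and none in replicate 2. Without MEP replicate 2 the difference was -3.05. Rag2 passed the filter through CMP and GMP alone, so a lower value in MEP was selected for and its call is no support. Rag1, its partner in the recombinase, had 2 reads in each CMP library and none in GMP or MEP, so Rag1 was near the limit of these libraries in the progenitors where Rag2 was read.

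Notch1 and Ikzf1 separated MEP from the other progenitors in opposite directions. Notch1 read 40.89 and 40 CPM in CMP, 37.58 and 32.85 CPM in GMP and 0.5914 and 0.5093 CPM in MEP, 67.4-fold lower in MEP than in CMP (log2 -6.08 ± 0.17 SE, adjusted p = 2.243e-12, edgeR). Ikzf1 read 183.5 and 189.1 CPM in CMP, 137.7 and 147.9 CPM in GMP and 301.4 and 304.1 CPM in MEP, 1.76-fold higher in MEP than in CMP (0.82 ± 0.05 SE, adjusted p = 9.075e-09). Between MEP and GMP the fold was 1.97 for Ikzf1, higher in MEP, and 68.3 for Notch1, lower in MEP. Il7r had 0 to 22 reads in these libraries and was not called.

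**Figure D5:**
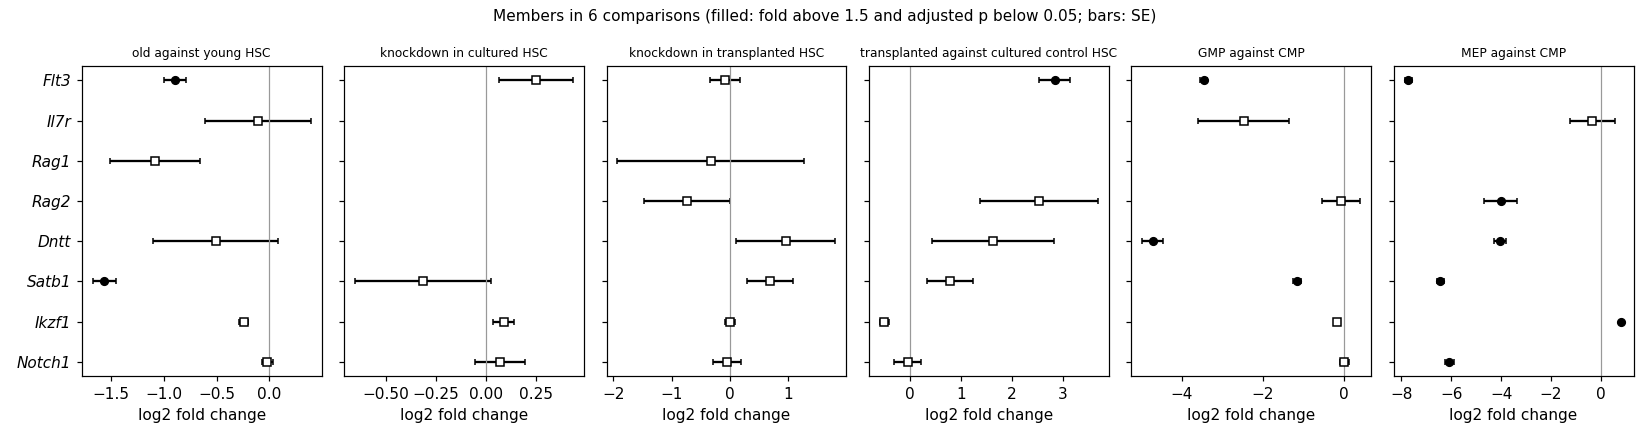
Log2 fold change with SE bars of each member in 6 comparisons, each panel with its own horizontal scale; filled circles passed a fold above 1.5 and an adjusted p below 0.05, and open squares did not. A member without a point was not tested, and Rag1 is left out of the panel of transplanted against cultured controls because both cultured controls had no reads.

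Most surface and early genes of lymphoid-primed progenitors also fell in MEP. Of 13 surface and early genes tested, 12 fell and none rose between MEP and CMP (median log2 -6.32, against -0.07 over all genes), among them Btla (-11.16), Cd34 (-9.64) and Cd53 (-7.68); CD34 belongs to the usual gate between these progenitors. Of 26 lymphoid transcription factors 16 fell and 2 rose (median -1.26), among them Irf8, Gfi1 and Spi1. Of 14 interleukin 7 and Flt3 signaling genes 8 fell and none rose (median -2.39), among them Bcl2 (-6.15). The 12 V(D)J genes did not lean one way, with 3 higher and 3 lower, and Xrcc5, a subunit of Ku, rose (2.01). Of 23 Notch pathway genes 7 fell, led by Jag2 (-5.85), and 5 rose, beside the 46.7% called over all genes. Cell type markers also differed. From CMP to MEP the granulocyte and monocyte sum went from 16451 and 19812 to 38.31 and 66.12 CPM. The T and NK sum went from 352.1 and 362.3 to 6.111 and 6.961 CPM, the B cell sum from 293.5 and 305.5 to 9.196 and 11.15 CPM. The erythroid sum rose from 371 and 391.3 to 6498 and 6905 CPM. The part of these markers in the list values was not tested.

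Young HSCs and CMP were set side by side last, with libraries that no source places in 1 preparation, so that cell type and preparation cannot be told apart. Reads fell on 37847 to 42062 genes in the young HSC libraries and on 23257 and 23405 genes in the CMP libraries. Here 16542 of 25716 genes were called, 64.3%, and the median of all genes was 0.487 on the log2 scale, higher in HSCs. Relative to CMP, 6 of 8 members were called: Dntt was 49.7-fold lower in young HSCs, Flt3 8.81-fold, Rag2 8.62-fold, Satb1 7.61-fold and Ikzf1 1.68-fold, while Rag1 was 11.6-fold higher (log2 3.54 ± 0.80 SE, adjusted p = 0.0005593, edgeR). The Dntt difference was -5.63 on the log2 scale with all libraries and -6.93 without young replicate 3, which had 36 reads against 2 to 9 in the other young libraries. The Rag1 difference rested on 13 to 25 reads in a young HSC library against 2 reads in a CMP library, and Rag1 passed the filter through the young HSC libraries alone, so a gene with these reads had to differ and its call is no support. Notch1 was at 0.46, close to the median of all genes. The B cell markers named above did not share an order. Cd79a was 12.3 to 31.75 CPM in these HSC libraries and at or below 0.2242 CPM in CMP, Ighm was 37.65 to 99.11 CPM against 246.6 to 262.6 CPM, and the 15-marker sum was 143.9 to 303.3 CPM against 293.5 to 305.5 CPM. Their part in the Rag1 difference was not tested.

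Across the 11 groups, each member had its own order of levels. Flt3 was highest in CMP (202 ± 19.14 CPM, SD, n = 2), followed by the transplanted groups and young HSCs, whose means ± SD overlapped from one to the next, then GMP (15.81 CPM) and old HSCs (15.33 CPM), which overlapped, then the cultured groups and MEP. Satb1 ran from CMP through GMP, young HSCs and old HSCs, each step without overlap of the SDs, down to the transplanted and cultured groups, which overlapped with their neighbors. Notch1 was highest in young (71.25 ± 2.876 CPM, n = 4) and old HSCs (68.38 ± 4.779 CPM, n = 8), which overlapped, and lowest in MEP. Ikzf1 ranged over less than 3-fold, from 109.7 CPM in transplanted HSCs with shRNA1 to 302.7 CPM in MEP.

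Over the 11 group means of log2(CPM + 1), Satb1 and Rag2 were the members most alike (Pearson r = 0.924), and Notch1 and Ikzf1 the least (r = -0.738). Groups in these correlations share kits and preparations, and r is given as a description. Among 18598 genes that reached 1 CPM in some group, the genes most like Flt3 were Gm50035 (r = 0.9609), Nlrc3 (0.9458) and Il10rb (0.9383). For Satb1 they were C230085N15Rik (0.9867), which overlaps Satb1, Rftn2 (0.977) and Itgb5 (0.9716), for Dntt Gm37126 (0.9835), Pdzph1 (0.9687) and Ighj1 (0.9536), and for Rag2 Mpeg1 (0.9805), Akr1a1 (0.9777) and Top3b (0.9777). For Notch1 they were Zfp516 (0.9766), Pcnx (0.9757) and Fam107b (0.9753), and for Ikzf1 Gm10110 (0.9838), Mettl23 (0.9702) and Gm16156 (0.9701). Rag1 and Il7r stayed below a mean of 1 CPM in every group and were not compared.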

How the data were processed

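After trimming of mRNA-seq reads (Trim Galore 0.4.3, cutadapt 1.12), the authors used STAR on mm10 and featureCounts, and the deposited values are raw counts per gene. The labels give a SMARTer total RNA kit for fresh HSC and progenitor libraries and SMART-seq v4, a polyA kit, for cultured and transplanted HSCs, while the methods of the study name a SMART-Seq kit for young and old HSCs, so the kit of the fresh libraries is uncertain and levels across these sets are side by side only. In the fresh HSC files, 92 spike-in rows, 6.05 to 6.93% of counts, were left out. ATAC-seq values are counts deposited over a consensus set of regions. Histone values are a signal that the authors normalized to a common library depth. The deposited fold change columns of the histone tables hold the authors' own comparison and were not used, nor were 8 per-sample columns whose samples are not analysed here.

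CPM were computed from the gene totals. Tests used edgeR 4.0.16 (TMM, filterByExpr, robust quasi-likelihood fit, Benjamini-Hochberg) in R 4.3.3, on each experiment's libraries, tested on simulated data; the tool is edgeR for every adjusted p unless named. Alternatives used DESeq2 1.42.0, limma 3.58.1 on log2(signal + 0.5), other thresholds, no filter, the replicate number as a block and each library left out. ATAC regions needed more than 1.5 CPM in 4 libraries. Places come from GENCODE M21 (GRCm38), peak coordinates from the authors' files.

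The members and lists were chosen with earlier results of these data known. Named genes were the 8 members, up to 4 called genes with the largest change in each list, and the 3 most alike genes for each member. Some genes of the lists and 1 region are not reported here. Markers of 8 cell types were read in every library; sums not given in the report were, in young and old HSCs, 5111 to 5180 and 4689 to 5185 CPM for LT-HSCs. Granulocyte and monocyte sums were 566.1 to 708.9 and 694.3 to 801 CPM and plasmacytoid dendritic cell sums 223.1 to 256.5 and 221.2 to 239.5 CPM. No 2 libraries of a group agreed within sampling noise. Deviations of samples with the same replicate number correlated at -0.16 to 0.04 in fresh HSCs, 0.020 for H3K27ac and -0.082 to 0.186 in the experiments with 2 libraries a group. No label ties a number to a shared animal or batch, so samples were not paired.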

Additional observations from a re-analysis of the deposited data

Results flagged for a closer look

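A sample far from the others of its group was looked for with Dixon's test in groups of 4 and 8 libraries, which by chance flags about 1 in 20 groups. In old HSCs, replicate 7 had the highest Rag2 level, 0.8568 CPM (19 reads), and the highest sum of B cell markers, 206.8 CPM, most of it Ighm. In the same library Flt3 was 16.14 CPM and Satb1 5.727 CPM, inside the range of the other old libraries. The sum of plasma cell markers was highest in young replicate 4, at 262.7 CPM, most of it Jchain, and the sum of erythroid markers was highest in 1 old library, at 121.4 CPM. Among ATAC regions, the one past the end of Il7r was highest in old replicate 6, at 4.591 CPM, the first start of Satb1 was highest in old replicate 8, at 48.59 CPM, and the Notch1 region 33.2 kb into the gene was lowest in young replicate 1, at 10.05 CPM. In each of these 3 regions the ages still did not overlap.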

How the results depend on the processing

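Calls were recomputed under other tools, scalings, filters and thresholds and with each library left out; none reversed. The 2 members called with age became 1 (Flt3) with Cd79a and Ms4a1 summed, or Cd79a alone, as a covariate. They became 0 with 1 further B cell marker in the sum. In these 3 fits Satb1 was at -1.15, -1.56 and -1.19 in that order, against -1.57 without a covariate. They stayed 2 with Ms4a1 alone (Satb1 at -1.13), with the 15-marker sum (-1.44) and without young replicate 4 and old replicate 7. All of these settings were chosen after seeing the data. Rag1, which was added with age when 1 old library was left out, passed the filter mainly through the young libraries. Leaving out 1 library gave 2 to 3 with age (Rag1 added), 1 to 2 for transplanted against cultured controls, 5 to 6 for MEP against GMP (Il7r added without GMP replicate 1, which left GMP with no Il7r reads in 1 library), 2 to 6 H3K27ac peaks (6 without young replicate 2) and 5 to 8 ATAC regions (5 without young replicate 2, old replicate 6 or old replicate 8; 8 without young replicate 3 or old replicate 5). With the regions filtered on all libraries, an alternative added after seeing the data, it gave 6 to 10 (10 without old replicate 5), since regions open at 1 age drop out of the filter when a library of that age is left out. With no minimum fold Ikzf1 was added with age (3), for transplanted against cultured controls (2) and for GMP against CMP (4), and Notch1 for young HSC against CMP (7). H3K27ac gave 4 member peaks with libraries scaled to the same median, 0 at a ratio above 2 and 0 in limma. ATAC gave 3 regions at a fold above 2. The cause was not tested.

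With the replicate number as a block, members called were 2 with age, 0 for knockdown in culture, 0 after transplantation, 0 for the interaction, 1 for transplanted against cultured controls, 6 for MEP against CMP, 3 for GMP against CMP, 5 for MEP against GMP and 6 for young HSC against CMP, as without it, while limma with the block called 1 H3K27ac peak, that of Notch1 (adjusted p = 0.0229). Numbers correlated at -0.034 to 0.046 in culture, -0.082 to 0.131 after transplantation and 0.039 to 0.186 in progenitors. For ATAC, no paired analysis was possible because young and old libraries share no replicate number.

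Over all genes, calls with age were 4434 with no minimum fold. Knockdown in culture called 179 genes, 665 with no minimum fold, 322 with no filter on low counts and 79 to 189 with a library left out. The interaction called 36 genes, 156 with DESeq2, 66 with no filter, 21 with the block and 1 to 79 with a library left out. Rag1, Rag2, Dntt and Il7r had 1 to 36 reads in fresh HSC libraries, which limits the precision of their values.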
